A study of Mus musculus with 18 samples.

Results

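The 10 genes described here encode the core members of the transcription factor AP-1 and 3 factors of the immediate early response, in immune cells of the mouse brain. They are the Fos family (Fos, Fosb, Fosl1 and Fosl2), the Jun family (Jun, Junb and Jund), Atf3, Egr1 and Klf6. They were chosen by name, from the rows of the count table whose Ensembl identifier carries one of these symbols. All 10 were found among 57010 genes in the table, and 9 of them were among the 15528 genes with enough counts to be tested. Fosl1 was not.

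The 18 libraries are bulk RNA sequencing of cells labelled microglia/macrophages from brains of male WT mice, 3 libraries in each of 6 groups. In order, the groups are aged mice with ischemic stroke given bexarotene, aged mice with stroke given vehicle, aged mice without stroke given bexarotene, aged mice without stroke given vehicle, young mice given bexarotene and young mice given vehicle. Aged mice were 18 to 20 months old and young mice 2 to 4 months old. Bexarotene is a synthetic agonist of retinoid X receptors. Mice received 5 mg/kg by intraperitoneal injection, with the first dose 24 hours after surgery and daily doses after that. Its vehicle was saline with 3% DMSO, and all samples carry the time label day 3. The stroke was an occlusion of the middle cerebral artery. The labels mark the mice of the other groups as free of disease and do not say which surgery, if any, they had. They call the libraries biological replicates and do not say whether a library held cells of 1 mouse or of several, so the p-values below measure the spread between these libraries. Cells of every group were released from tissue with papain and DNase, cleared on Percoll, depleted of neutrophils with Ly6G beads and selected with CD11b beads.

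AP-1 is a dimer of basic leucine zipper (bZIP) proteins. Fos proteins bind DNA only as partners of Jun proteins, whereas Jun proteins can also pair with each other and with ATF proteins, so the supply of each subunit sets which dimers can form. Several of these genes are immediate early genes, whose transcription starts within minutes of a stimulus from ready-made factors, without new protein. In microglia and macrophages they respond to inflammatory and injury signals, and the warm enzymatic dissociation of tissue induces them as well.

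The promoters of Fos, Jun and Atf3 are shown because Atf3 had the largest fold change of the members with stroke in bexarotene mice and Fos in vehicle mice, whereas Jun was not called in either. Each line gives the 250 bases before the annotated start, 5′ to 3′ on the gene's own strand, from RefSeq on build GRCm38.p6. The submitters' notes name build GRCm39 for their own processing, so these coordinates are not those of the counting. Capitals mark matches to the motifs searched for.
Fos, chr12:85473640-85473889, plus strand: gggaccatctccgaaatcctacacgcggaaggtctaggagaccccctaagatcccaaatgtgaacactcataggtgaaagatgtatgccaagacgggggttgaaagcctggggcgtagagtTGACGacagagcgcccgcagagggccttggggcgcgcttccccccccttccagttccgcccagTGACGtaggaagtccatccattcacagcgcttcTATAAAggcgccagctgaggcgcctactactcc
Jun, chr4:95052223-95052472, minus strand: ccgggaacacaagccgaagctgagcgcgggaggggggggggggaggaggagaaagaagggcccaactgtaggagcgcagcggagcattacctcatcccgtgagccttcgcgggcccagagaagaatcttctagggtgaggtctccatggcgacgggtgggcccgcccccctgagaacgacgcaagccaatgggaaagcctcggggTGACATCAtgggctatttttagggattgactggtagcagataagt
Atf3, chr1:191183334-191183583, minus strand: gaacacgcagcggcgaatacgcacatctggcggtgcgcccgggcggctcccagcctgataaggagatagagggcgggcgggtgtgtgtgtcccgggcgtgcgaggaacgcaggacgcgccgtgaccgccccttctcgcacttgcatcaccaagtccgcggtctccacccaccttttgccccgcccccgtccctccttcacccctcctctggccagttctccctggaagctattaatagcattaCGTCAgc
The Fos window holds the TATA box TATAAA at -33 to -28 and the CRE core TGACG at -129 to -125 and at -66 to -62, counted back from the start. The Jun window holds TGACATCA, the ATF-type variant, at -45 to -38. The Atf3 window holds the CRE core on its opposite strand, printed as CGTCA, at -7 to -3. Motifs were searched on both strands of 32851 windows of the same length, except TATAAA, which was searched on the gene's own strand only. The CRE core was present in 17.8% of these windows, TGACATCA in 2.93% and TATAAA in 7.59%. The AP-1 site TGACTCA was in 4.46%, the full CRE TGACGTCA, which contains the CRE core, in 1.55%, the EGR site GCGNGGGCG in 4.70% and the CArG box in 1.47%. Of the members, 8 had a window, and Egr1 and Fosl1 had none and were not searched. The CArG box, the AP-1 site and the full CRE matched in none of the 8. Bases farther than 250 before the start were not searched. TGACATCA also matched before Klf6, the EGR site before Fosb and Fosl2, and the CRE core before Fosb and Junb. A match is a description of the letters and not a bound site.

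Library totals were 16206144 to 29359943 counts with stroke and 7582511 to 11852638 without. On the leading principal component, with 59.9% of the variance, the 6 stroke libraries stood apart from the 12 others. Microglial identity genes were abundant in every group. P2ry12, a purinergic receptor of resting microglia, averaged 2279 CPM in aged stroke bexarotene, 2505 CPM in aged stroke vehicle, and between 8696 and 12804 CPM in the groups without stroke. CPM here are counts scaled to a common library size, taking each library total over the tested genes times its TMM factor.

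Fos, Fosl2, Junb and Atf3 were higher with stroke in both treatments, Fosb and Egr1 were called higher in vehicle mice, and Jun, Jund and Klf6 were called in neither. In vehicle mice, 6 of 9 tested members rose with stroke and none fell, in a comparison in which 27.2% of all tested genes rose, 21.1% fell and 48.3% changed. In bexarotene mice, 4 of 9 rose and none fell, where 26.8% of all tested genes rose, 21.2% fell and 48% changed. The median log2 fold change of the 9 was 0.85 under bexarotene, beside 0.00 for all tested genes, and 1.71 under vehicle, beside 0.02. In the vehicle comparison, 7 members did not overlap between stroke and no stroke, all higher, against 31% of all genes higher without overlap. In the bexarotene comparison, 6 did not overlap, 5 higher and Jund lower, against 56.3% of all genes in either direction. Calls and adjusted p-values come from edgeR's quasi-likelihood test adjusted by Benjamini-Hochberg (BH) across the 15528 genes and called under 0.05, and fold changes are log2 values ± SE with 3 libraries per group. In bulk samples, fewer expressing cells and less RNA per cell cannot be told apart.

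Fos, the prototype subunit and a transient early responder, had 945, 2244 and 1554 CPM in aged stroke bexarotene libraries 1 to 3, against 395, 318 and 362 CPM in aged bexarotene libraries. In vehicle mice it had 2243, 1288 and 1747 CPM with stroke, against 359, 181 and 141 CPM without. The lowest stroke library was above the highest library without stroke in both treatments. Fos rose by 2.14 ± 0.45 under bexarotene (adjusted p = 0.00143, edgeR with BH) and by 2.95 ± 0.47 under vehicle (adjusted p = 0.000142). These are rises of 4.41-fold under bexarotene and 7.75-fold under vehicle. No member had a larger fold change in the vehicle comparison.

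Fosb, a close relative of Fos, was far scarcer, at 6.76, 7.39 and 6.07 CPM in aged stroke bexarotene and 2.99, 0.425 and 2.13 CPM in aged bexarotene. It had 12.7, 7.07 and 6.83 CPM in aged stroke vehicle, against 3.44, 1.27 and 0.384 CPM in aged vehicle. All 6 stroke libraries lay above the 6 aged libraries without stroke. The rise was called in vehicle mice (2.37 ± 0.78, adjusted p = 0.0202, edgeR with BH) and not in bexarotene mice (1.89 ± 0.78, adjusted p = 0.0573), where DESeq2 and limma voom did call it (adjusted p = 0.0258 and 0.0134). The vehicle call was lost when aged vehicle library 2, aged vehicle library 3 or aged stroke vehicle library 1 was left out (adjusted p = 0.0726, 0.0802 and 0.0706, edgeR with BH).

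Fosl2, which encodes the Fos-related antigen Fra-2 and usually responds later and for longer than Fos, had 23.3, 39.4 and 20.8 CPM in aged stroke bexarotene, against 8.34, 6.71 and 12.2 CPM in aged bexarotene. In vehicle mice it had 37.4, 39.7 and 44.0 CPM with stroke, against 7.34, 12.2 and 15.2 CPM without. The groups did not overlap in either treatment. Fosl2 rose by 1.62 ± 0.30 under bexarotene (adjusted p = 0.00028, edgeR with BH) and by 1.80 ± 0.30 under vehicle (adjusted p = 8.23e-05).

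Fosl1, which encodes Fra-1, had 4 counts in all 18 libraries together. Aged stroke vehicle library 2 held 1 of them and library 3 held 3, and every other library was at 0. A count of 3, taken as the floor of detection, corresponds to at most 0.396 CPM in the shallowest library, and this covers counting error only. The gene overlaps Ccdc85b on the opposite strand, which had 1561 counts.

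Among the Jun family only Junb rose with stroke. Jun, the prototype of the Jun proteins that Fos binds DNA with, had 364, 468 and 469 CPM in aged stroke bexarotene, against 662, 333 and 486 CPM in aged bexarotene. It had 727, 508 and 490 CPM in aged stroke vehicle, against 758, 325 and 342 CPM in aged vehicle. The groups overlapped, and the log2 fold changes were -0.19 (95% interval -1.11 to 0.74) under bexarotene and 0.28 (-0.65 to 1.20) under vehicle. Without the libraries numbered 1, an alternative chosen after the values were seen, Jun was called higher with stroke in vehicle mice at 0.55 (adjusted p = 0.0307, edgeR with BH).

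Junb, which can form AP-1 dimers but activates many Jun targets less strongly, had 705, 1004 and 727 CPM in aged stroke bexarotene, against 479, 498 and 471 CPM in aged bexarotene. It had 1043, 780 and 835 CPM in aged stroke vehicle, against 531, 314 and 246 CPM in aged vehicle. Every stroke library was above every aged library without stroke. Junb rose by 0.75 ± 0.25 under bexarotene (adjusted p = 0.0222, edgeR with BH) and by 1.29 ± 0.26 under vehicle (adjusted p = 0.00059). The bexarotene call was lost without aged bexarotene library 1 or 3 or aged stroke bexarotene library 2 (adjusted p = 0.0567, 0.0614 and 0.109, edgeR with BH). Junb overlaps Prdx2 on the opposite strand, with 14988 counts for Prdx2 and 149231 for Junb over all libraries.

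Jund, the Jun family member usually present at a steady level, ran from 47.6 to 64.7 CPM in aged stroke bexarotene and from 64.9 to 77.9 CPM in aged bexarotene. It ran from 57.0 to 73.3 CPM in aged stroke vehicle and from 48.3 to 86.0 CPM in aged vehicle. The bexarotene groups did not overlap, by a small margin, and the vehicle groups did. The log2 fold change with stroke was -0.27 (95% interval -0.66 to 0.12) under bexarotene and 0.0046 (-0.39 to 0.40) under vehicle, and the sign of the vehicle value turned with the normalization. Over all 6 groups the mean of Jund lay between 58.9 and 70.8 CPM.

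Atf3, a stress-induced bZIP factor that pairs with Jun proteins and restrains inflammatory genes in macrophages, had 119, 235 and 154 CPM in aged stroke bexarotene, against 35.8, 37.5 and 31.2 CPM in aged bexarotene. It had 267, 119 and 234 CPM in aged stroke vehicle, against 43.1, 48.7 and 47.9 CPM in aged vehicle. All stroke libraries were above all libraries without stroke. Atf3 rose by 2.28 ± 0.27 under bexarotene (adjusted p = 4.89e-06, edgeR with BH) and by 2.15 ± 0.27 under vehicle (adjusted p = 7.77e-06), the smallest p-values among the members in both comparisons.

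Egr1, a zinc finger factor that is induced through serum response factor and MAP kinases like Fos, varied widely among the stroke libraries. It had 181, 411 and 614 CPM in aged stroke bexarotene, against 266, 194 and 211 CPM in aged bexarotene. It had 615, 388 and 414 CPM in aged stroke vehicle, against 242, 115 and 77.7 CPM in aged vehicle. The vehicle groups did not overlap, whereas aged stroke bexarotene library 1 lay below all 3 aged bexarotene libraries. Egr1 rose by 1.71 ± 0.55 under vehicle (adjusted p = 0.0207, edgeR with BH) and was not called under bexarotene (0.85 ± 0.54, adjusted p = 0.218). The vehicle call was lost without aged vehicle library 2 or 3 or aged stroke vehicle library 1 (adjusted p = 0.0748, 0.0846 and 0.0708, edgeR with BH). The bexarotene difference was called without the libraries numbered 1, at 1.33 (adjusted p = 0.000286, edgeR with BH).

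Klf6, a zinc finger factor of the Krüppel-like family that promotes inflammatory gene expression in macrophages, had 187, 270 and 284 CPM in aged stroke bexarotene and 331, 229 and 288 CPM in aged bexarotene. It had 368, 330 and 350 CPM in aged stroke vehicle and 252, 313 and 310 CPM in aged vehicle. The vehicle groups did not overlap, by a small margin, and the log2 fold changes were -0.20 (95% interval -0.50 to 0.11) under bexarotene and 0.26 (-0.04 to 0.56) under vehicle. Neither was called.

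**Figure D1:**
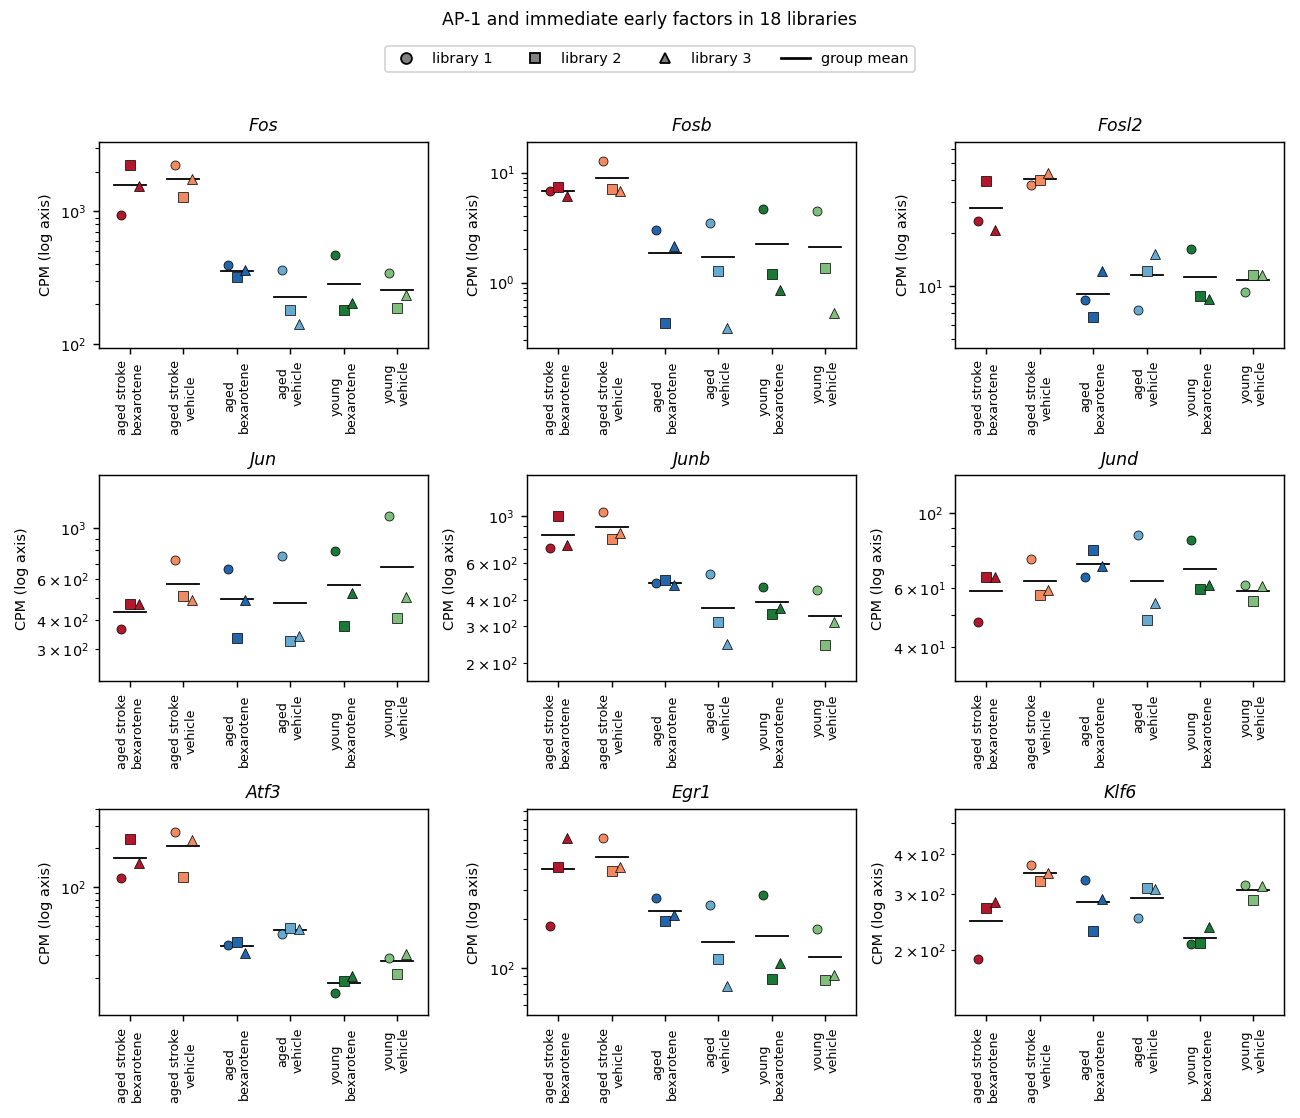
Level of each tested factor in every library, in CPM on a log axis, with a panel per gene, a column per group, a symbol per library number and a line at the group mean. Fos, Fosb, Fosl2, Junb and Atf3 lie higher in all 6 stroke libraries than in all aged libraries without stroke, Jun overlaps between stroke and no stroke in both treatments, and the libraries numbered 1 stand high in Jun in the 4 groups without stroke.

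**Figure D2:**
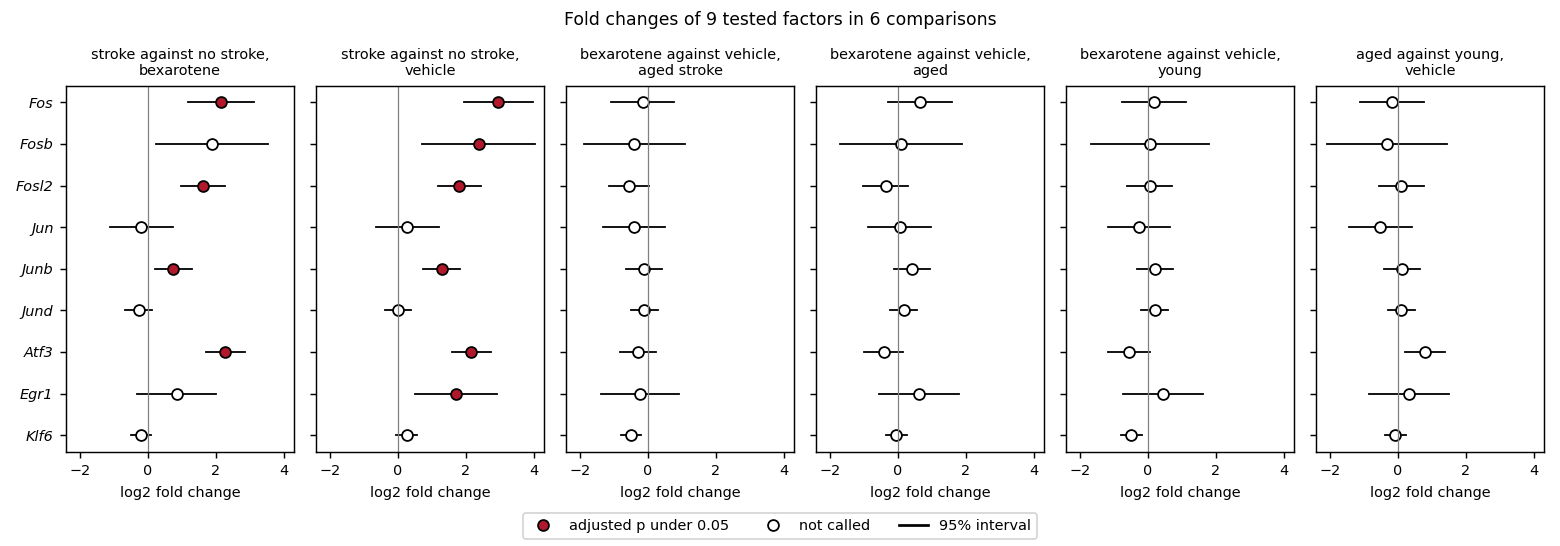
Log2 fold change of the 9 tested factors (points) with 95% intervals (lines) in 6 comparisons, each the first-named group over the second. Filled points, with an adjusted p under 0.05 (edgeR with BH), occur only in the stroke comparisons, 4 of 9 in bexarotene mice and 6 of 9 in vehicle mice.

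With the low-count filter, the effect of stroke was not shown to differ between treatments for any member. The test of that difference, bexarotene effect with stroke minus bexarotene effect without, called none of 9 members and 0 of 15528 genes, with 4.11% of all genes at an unadjusted p under 0.05. For Fos the difference was -0.81 ± 0.61 and for Egr1 -0.86 ± 0.76, both with an adjusted p of 1 (edgeR with BH). Without the filter both were called, Fos at -0.82 (adjusted p = 0.00343) and Egr1 at -0.86 (adjusted p = 0.00145, edgeR with BH). Of all 31653 genes then tested, 256 were called. No other alternative called a member for this difference.

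The balance of Fos and Jun was described by their ratio. The ratio of Fos to Jun counts, each per base of merged exons, can be read within a library and needs no normalization between libraries. It was 3.52, 6.50 and 4.49 in aged stroke bexarotene, 4.18, 3.44 and 4.84 in aged stroke vehicle, 0.810, 1.29 and 1.01 in aged bexarotene, and 0.642, 0.755 and 0.558 in aged vehicle. It was 0.801, 0.648 and 0.526 in young bexarotene and 0.410, 0.624 and 0.633 in young vehicle. Every stroke library thus held more Fos than Jun transcript per length, and 10 of 12 libraries without stroke held less. The ratio was 4.60-fold higher with stroke under bexarotene and 6.36-fold higher under vehicle. It was chosen after the values of its parts were seen and is given as a description with no test.

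**Figure D3:**
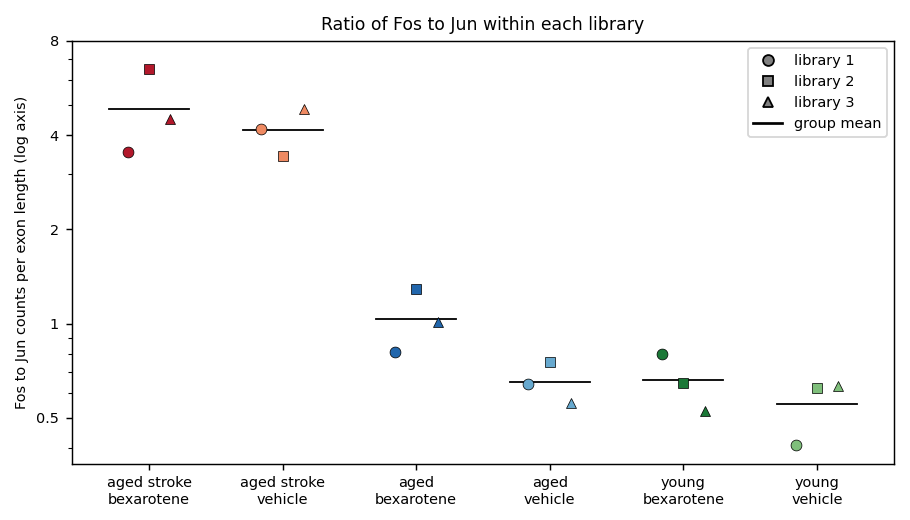
Ratio of Fos to Jun counts per exon length in each library, on a log axis, with a column per group, a symbol per library number and a line at the group mean. The 6 stroke libraries lie between 3.44 and 6.50 and the 12 others between 0.410 and 1.29.

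Per length, the order of the members was not the same with and without stroke. In aged stroke vehicle, Fos stood first at 748 ± 203 CPM per kb of exon (SD, n = 3), ahead of Junb at 385 ± 60.3, Jun at 180 ± 41.4, Egr1 at 105 ± 27.7, Atf3 at 96.0 ± 36.1 and Klf6 at 79.6 ± 4.33. Egr1, Atf3 and Klf6 did not differ beyond their spread. Jund followed at 37.8 ± 5.31, Fosl2 at 4.17 ± 0.341 and Fosb at 1.42 ± 0.535 CPM per kb. In aged vehicle, Junb at 158 ± 64.7, Jun at 149 ± 76.9, Fos at 96.5 ± 49.4 and Klf6 at 66.4 ± 7.83 CPM per kb lay within each other's spread from one to the next. Jund at 37.7 ± 12.2, Egr1 at 32.3 ± 19.2 and Atf3 at 21.6 ± 1.40 CPM per kb came next and also overlapped, with Fosl2 at 1.20 ± 0.408 and Fosb at 0.272 ± 0.252 CPM per kb last. Young vehicle cells had Jun at 213 ± 122, Junb at 146 ± 44.6 and Fos at 108 ± 33.2 CPM per kb, again within their spread.

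Other immediate early genes rose with stroke alongside the members. Of 28 tested, 16 rose and 2 fell in bexarotene mice, and 20 rose and 2 fell in vehicle mice. Their median log2 fold change was 0.98 under bexarotene and 1.42 under vehicle. Socs3, a feedback inhibitor of cytokine signalling, averaged 481 CPM in aged stroke bexarotene and 88.1 CPM in aged bexarotene, and 557 CPM in aged stroke vehicle and 71.3 CPM in aged vehicle (2.96 ± 0.21 under vehicle, adjusted p = 9.9e-09, edgeR with BH). Mcl1, an inhibitor of apoptosis, rose by 0.99 ± 0.10 under bexarotene and 1.11 ± 0.10 under vehicle. Ier3, an early response gene tied to cell survival, rose by 2.93 ± 0.29 under bexarotene and 3.36 ± 0.30 under vehicle, Plk2, a polo-like kinase, rose by 2.04 ± 0.23 under bexarotene, and Csrnp1 rose by 1.88 ± 0.20 under vehicle.

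Of the genes often described as AP-1 targets, 18 of 24 rose under bexarotene and 17 of 24 under vehicle, with 2 lower in each. Their median was 2.21 under bexarotene and 2.51 under vehicle. The monocyte chemoattractant Ccl2 averaged 374 CPM in aged stroke bexarotene and 20.6 CPM in aged bexarotene (4.19 ± 0.32), and 503 CPM in aged stroke vehicle and 20.2 CPM in aged vehicle (4.64 ± 0.32). Under bexarotene, the heme oxygenase Hmox1 rose by 3.05 ± 0.20, the intermediate filament gene Vim by 4.32 ± 0.35 and the cytokine Tnf by 2.87 ± 0.27. Under vehicle, Hmox1 rose by 2.79 ± 0.19, Vim by 5.17 ± 0.37 and Tnf by 2.74 ± 0.26. The 2 that fell were the cytokine Il6 and the growth factor Hbegf in both treatments. These genes have many other regulators, and binding of AP-1 was not measured.

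The other bZIP genes, which encode possible partners, went both ways, with 7 higher and 7 lower of 24 under bexarotene and 8 higher and 7 lower under vehicle, close to the shares over all genes. Cebpb, a C/EBP factor of the inflammatory response, rose by 1.83 ± 0.28 under bexarotene and 1.98 ± 0.28 under vehicle. Maf fell by 1.02 ± 0.09 under bexarotene and 1.19 ± 0.09 under vehicle on the log2 scale. Under bexarotene Crem, a CREB-family factor, rose by 1.68 ± 0.32 and Bach2, a repressor, fell by 1.03 ± 0.20. Under vehicle Atf6, a sensor of endoplasmic reticulum stress, rose by 0.84 ± 0.12 and Atf2, a partner of Jun, fell by 0.68 ± 0.12.

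MAP kinases and serum response factors, which act upstream of Fos and Egr1, are listed here by their counts. Of 28 tested, 6 were higher and 4 lower under bexarotene, and 5 higher and 3 lower under vehicle. Over all tested genes, 26.8% were higher and 21.2% lower under bexarotene, and 27.2% higher and 21.1% lower under vehicle. Under bexarotene, the kinase Mapkapk2 rose by 1.22 ± 0.11, Map3k8 by 1.23 ± 0.18 and Map2k3 by 0.89 ± 0.16, while Rps6ka1 fell by 0.63 ± 0.11. Under vehicle, Mapkapk2 rose by 1.10 ± 0.11, Map3k8 by 1.19 ± 0.18 and Map2k3 by 1.12 ± 0.16, while Rps6ka1 fell by 0.77 ± 0.11. Of 13 tested phosphatases and feedback inhibitors of the same kinases, 3 were higher and 4 lower under bexarotene and 4 higher and 4 lower under vehicle. Dusp5 rose by 4.41 ± 0.44 under bexarotene and 4.81 ± 0.47 under vehicle, and Dusp3 by 1.30 ± 0.16 under bexarotene and 1.14 ± 0.16 under vehicle. Dusp6 fell by 0.81 ± 0.10 under bexarotene and 1.03 ± 0.10 under vehicle, and Dusp7 by 1.84 ± 0.20 under bexarotene and 1.55 ± 0.20 under vehicle.

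**Figure D4:**
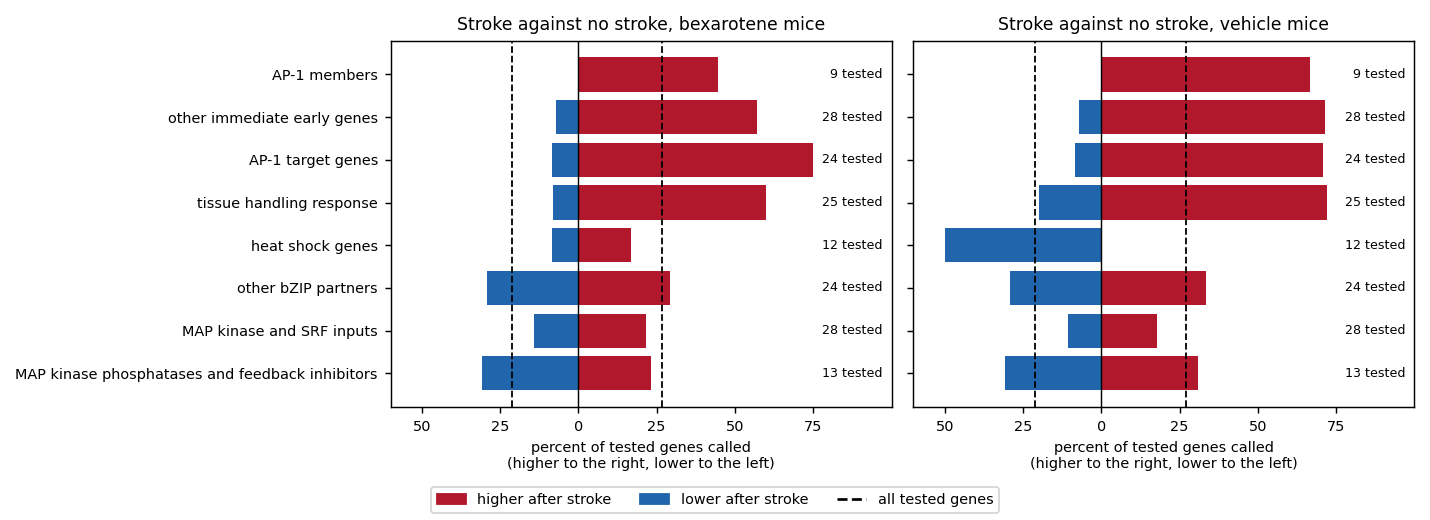
Share of the tested genes of each list called higher (right) or lower (left) with stroke, in percent, for bexarotene mice and vehicle mice, with dashed lines at the shares over all tested genes. The members, other immediate early genes, AP-1 target genes and handling genes extend past the dashed line for higher, and the heat shock genes extend past the line for lower in vehicle mice. The other bZIP genes pass both lines by less in both treatments, and the phosphatases and feedback inhibitors pass the line for lower in both treatments and that for higher in vehicle mice. The handling list shares genes with the immediate early and AP-1 target lists.

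Genes known to respond to tissue handling were also higher with stroke, 15 of 25 under bexarotene, where 2 were lower, and 18 of 25 under vehicle, where 5 were lower. Leaving out the members, 26 such genes summed to between 6797 and 9737 CPM in aged stroke bexarotene and between 8749 and 9637 CPM in aged stroke vehicle. They summed to between 5107 and 6139 CPM in aged bexarotene, 5548 and 7979 CPM in aged vehicle, 4455 and 6045 CPM in young bexarotene and 4654 and 5763 CPM in young vehicle. The list shares Socs3, Ier3 and other genes with the immediate early list, and Ccl4 is also on the list of AP-1 target genes. Id2, an inhibitor of differentiation factors, rose by 2.23 ± 0.24 under bexarotene, the metallothionein Mt1 rose by 1.69 ± 0.21 under vehicle, and the chemokine Ccl4 rose by 2.58 ± 0.24 under bexarotene and 2.28 ± 0.24 under vehicle. The part of handling in the rise of the members was not tested. Heat shock genes, which warmth also induces, were called lower with stroke more often than higher in vehicle mice, where 21.1% of all tested genes were lower. Of 12 heat shock genes, 6 were lower and 0 higher. Of these, Hspa1b averaged 21.3 CPM in aged stroke vehicle and 183 CPM in aged vehicle (-3.11 ± 0.98, adjusted p = 0.0192), Hsph1 fell by 1.40 ± 0.39 (adjusted p = 0.00797), Dnajb1 by 0.99 ± 0.28 (adjusted p = 0.00817) and Dnaja1 by 1.03 ± 0.34 (adjusted p = 0.0203, all edgeR with BH). Under bexarotene, 2 of 12 were higher, Hspe1 by 0.60 ± 0.18 and Hsp90aa1 by 0.69 ± 0.22, and Hspa1b was lower, at -2.62 ± 1.00. The 12 heat shock genes summed to 5223 to 7077 CPM in aged stroke vehicle, overlapping aged vehicle at 5741 to 11641 CPM. They summed to 4994 to 5936 CPM in aged stroke bexarotene and 4735 to 6221 CPM in aged bexarotene. In young mice they summed to 3419 to 5901 CPM with bexarotene and 5025 to 7430 CPM with vehicle.

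Markers of cell types moved with stroke too. All 16 monocyte and infiltrating macrophage markers rose in both treatments, summing to between 9468 and 21791 CPM in aged stroke bexarotene and 11601 and 19059 CPM in aged stroke vehicle, against 2064 to 2121 CPM in aged bexarotene and 1514 to 2555 CPM in aged vehicle. Of 14 microglia markers, 12 fell in both, summing to between 24723 and 31494 CPM in aged stroke bexarotene and between 26873 and 28145 CPM in aged stroke vehicle, against 52342 to 60405 CPM in aged bexarotene and 56531 to 60905 CPM in aged vehicle. Of 12 neutrophil markers, 1 rose and 1 fell under bexarotene and 5 rose and 0 fell under vehicle, and their sum ran from 990 to 3790 CPM in aged stroke bexarotene and 1089 to 2611 CPM in aged stroke vehicle, against 1075 to 2095 CPM in aged bexarotene and 684 to 953 CPM in aged vehicle. Ly6g, the antigen of the depletion beads, averaged at most 3.08 CPM in any group. Mitochondrially encoded genes took 0.484% to 0.670% of counts in stroke libraries and 0.271% to 0.464% in the others. The part of these differences in the stroke results was not tested, and in bulk libraries a change of mixture and a change within cells cannot be told apart.

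Bexarotene after stroke was accompanied by small negative differences in every tested member, none of them called. The 9 log2 fold changes of aged stroke bexarotene over aged stroke vehicle ran from -0.54 to -0.10 with a median of -0.29, beside 0.00 for all tested genes. Other lists lay the same way, with negative values in 24 of 28 other immediate early genes, 17 of 24 AP-1 target genes, 19 of 25 handling genes, 11 of 12 heat shock genes, 15 of 16 monocyte and infiltrating macrophage markers, 11 of 12 border macrophage markers and 8 of 8 choroid plexus markers. Microglia markers were negative in 4 of 14 and neutrophil markers in 2 of 12. Some of these lists share genes. None of the listed genes was called, and their part in the members' values was not tested. Of the members, 0 of 9 were called by edgeR with BH, where 0.058% of all tested genes were, 1 had an unadjusted p under 0.05 against 6.36% of all genes, and DESeq2 also called none. Klf6 had 187, 270 and 284 CPM in aged stroke bexarotene and 368, 330 and 350 CPM in aged stroke vehicle, without overlap (-0.50 ± 0.14, adjusted p = 0.349). Jun, at 364, 468 and 469 CPM in aged stroke bexarotene against 727, 508 and 490 CPM in aged stroke vehicle, did not overlap either (-0.41 ± 0.43, adjusted p = 0.975). Without overlap in either direction were 11.3% of all genes. For Fos the difference was -0.15 (95% interval -1.08 to 0.78), and its sign, like those of Junb, Jund, Atf3 and Egr1, turned when the libraries numbered 1 were left out.

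Within the aged stroke bexarotene group, most members were lowest in the same library. Aged stroke bexarotene library 1 was the lowest of its group in 7 of 9 members and the highest in none. It was also lowest of its group in the summed handling genes, at 6797 CPM beside 9737 and 8820 CPM. Aged stroke vehicle library 1 was the highest of its group in 8 of 9 members. Leaving out aged stroke bexarotene library 1 turned the bexarotene difference positive for Fos (0.12), Jund (0.047) and Egr1 (0.13). The other tested members stayed negative. Leaving out aged stroke vehicle library 1 instead turned it positive for Fos, Junb, Jund and Egr1.

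In aged mice without stroke, bexarotene gave no called member either, 0 of 9 by edgeR with BH and by DESeq2, where 0.258% of all tested genes were called, and 0 of 9 had an unadjusted p under 0.05 against 6.52% of all genes. Atf3 had 35.8, 37.5 and 31.2 CPM in aged bexarotene, against 43.1, 48.7 and 47.9 CPM in aged vehicle, without overlap (-0.42 ± 0.27, adjusted p = 0.887), and 11.8% of all genes had no overlap. Fos, at 395, 318 and 362 CPM in aged bexarotene against 359, 181 and 141 CPM in aged vehicle, had the largest value, 0.66 (95% interval -0.28 to 1.60). The aged bexarotene libraries lay close together in Fos, with a coefficient of variation of 10.9%, beside 51.3% in aged vehicle.

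In young mice, 0 of 9 members were called by edgeR with BH and by DESeq2, where 0.509% of all tested genes were, and 1 had an unadjusted p under 0.05 against 8.37% of all genes. That 1 was Klf6, with 209, 210 and 237 CPM in young bexarotene and 319, 287 and 318 CPM in young vehicle, without overlap (-0.49 ± 0.15, adjusted p = 0.199). Klf6 is listed in the authors' deposited table of this comparison, with a log2 fold change of -0.45, an SE of 0.107 and an adjusted p of 0.000858. Atf3 had 15.3, 18.8 and 20.7 CPM in young bexarotene and 28.2, 21.3 and 30.5 CPM in young vehicle, also without overlap (-0.55 ± 0.29, adjusted p = 0.65, edgeR with BH). Of all genes, 13.1% had no overlap. The authors' deposited tables for bexarotene in aged mice, with and without stroke, list none of the members.

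The bexarotene effect on Klf6 was 0.45 ± 0.20 higher in aged mice without stroke than in young mice, and 0.46 ± 0.20 lower in aged mice with stroke than in those without, on the log2 scale. The unadjusted p was 0.0413 and 0.0377, and the adjusted p was 1 for both (edgeR with BH). In the comparison of aged with young mice, 0 of 9 members and 0 of 15528 genes were called by edgeR and 2.94% had an unadjusted p under 0.05. DESeq2 called 5 genes there and 9 in the comparison of stroke with no stroke, none of them a member.

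Age alone gave no call among the members. In aged vehicle against young vehicle, 0 of 9 were called by edgeR with BH, where 1.7% of all tested genes were, and 1 had an unadjusted p under 0.05 against 13.1% of all genes. DESeq2 called 1. It was Atf3 in both, with 43.1, 48.7 and 47.9 CPM in aged vehicle, against 28.2, 21.3 and 30.5 CPM in young vehicle, without overlap (0.80 ± 0.27, adjusted p = 0.191, edgeR with BH). Of all genes, 9.69% were higher in aged vehicle without overlap. With DESeq2 the adjusted p of Atf3 was 0.0422, and with only these groups in the edgeR fit it was 0.0227. The authors' deposited table of this comparison lists Atf3 with a log2 fold change of 0.68, an SE of 0.24 and an adjusted p of 0.000422. The other 8 values ran from -0.52 for Jun to 0.31 for Egr1, and each of these groups overlapped.

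Of the 25 genes on the target list, 4 rose with age by edgeR with BH, where 1.7% of all tested genes were called. Ccl3 averaged 79.6 CPM in aged vehicle and 22.5 CPM in young vehicle (1.82 ± 0.27), and Ccl4, which is also on the handling list, averaged 103 CPM in aged vehicle and 33.9 CPM in young vehicle (1.59 ± 0.24). The integrin Itgax averaged 28.0 CPM in aged vehicle and 7.33 CPM in young vehicle (1.93 ± 0.40), and the urokinase receptor Plaur 33.5 CPM in aged vehicle and 17.4 CPM in young vehicle (0.95 ± 0.20). Of the kinases, Mapk14 fell by 0.36 ± 0.08 (adjusted p = 0.0334, edgeR with BH). Among the listed genes reported here, bexarotene raised Hbegf by 1.74 ± 0.36 in aged mice without stroke and 2.54 ± 0.35 in young mice. In young mice it also raised Myc by 1.02 ± 0.16, Id2 by 1.26 ± 0.23, Mafg by 0.65 ± 0.12 and Bach2 by 0.95 ± 0.20.

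Within groups, several members varied together from library to library. In young vehicle mice, for instance, library 1 had 1125 CPM of Jun, against 409 and 502 CPM in libraries 2 and 3. In the 4 groups without stroke, the library numbered 1 was the highest of its group 4 of 4 times for Fos, Fosb, Jun and Egr1, and 3 of 4 times for Junb and Jund. It was the highest 2 times for Klf6, 1 time for Fosl2 and 0 times for Atf3. The labels do not say that a number marks a shared day or batch. The spread within groups was largest for Fosb, with a pooled SD of 1.10 on the log2 scale, followed by Egr1 at 0.68, Fos at 0.55 and Jun at 0.54, and was smallest for Klf6 at 0.20. This SD includes counting error, which weighs most at the low counts of Fosb.

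**Figure D5:**
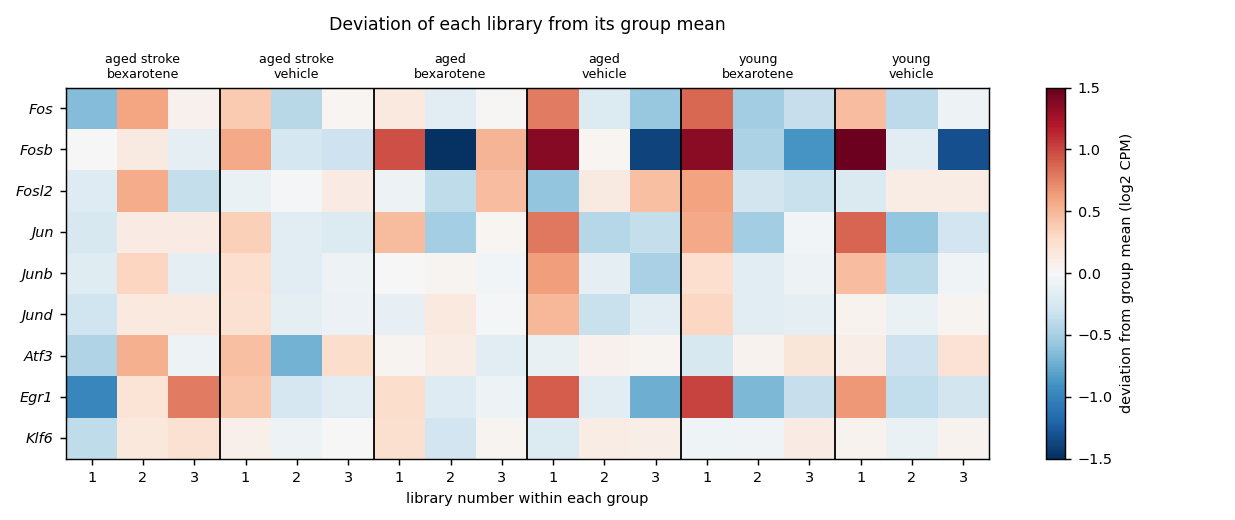
Deviation of each library from its group mean in log2 CPM, with a row per factor and a column per library, red above and blue below the mean. Colours stop at 1.5 in either direction. Libraries numbered 1 are red in Fos, Fosb, Jun and Egr1 in the 4 groups without stroke, and aged stroke bexarotene library 1 is blue in most factors.

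The deviations of Fos from its group mean were related to those of the 8 other tested members over 18 libraries, with exact two-sided permutation of libraries within groups. This takes libraries as independent between groups, so the p-values do not account for the shared deviation of same-numbered libraries described above. Pearson's r was 0.91 with Egr1 (Spearman's rho 0.94), 0.87 with Junb (0.89), 0.83 with Jund (0.86), 0.82 with Jun (0.80) and 0.72 with Fosb (0.71). The permutation p of r was 0.00167, 0.00015, 0.00637, 0.000171 and 0.00238 in the same order, and 0.00446, 0.000686, 0.0102, 0.000686 and 0.00476 after BH adjustment over the 8 relations. The adjusted permutation p of rho was 0.000743, 0.000686, 0.00638, 0.000743 and 0.00433. With Fosl2, Atf3 and Klf6, r was 0.13, 0.33 and 0.20 and rho 0.08, 0.31 and 0.25, with adjusted permutation p of r of 0.727, 0.318 and 0.613. Without the 2 libraries farthest from the median, young bexarotene library 1 and aged vehicle library 1, 4 of 8 relations passed by r and 6 of 8 by rho. Jund did not pass by r (r = 0.72, adjusted permutation p = 0.0764) and passed by rho (rho = 0.80, adjusted permutation p = 0.0478), as did Klf6 (rho = 0.55, adjusted permutation p = 0.0398).

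In the 12 libraries without stroke, 4 of 8 relations passed, with r of 0.99 for Egr1, 0.88 for Junb, 0.87 for Jun and 0.81 for Fosb (adjusted exact permutation p = 0.00617, 0.0123, 0.00617 and 0.0123). Jund did not pass (r = 0.80, adjusted permutation p = 0.101), and r was -0.34 for Atf3. In the 6 stroke libraries none of 8 passed, in a design of 36 permutations, and r was 0.91 for Atf3, 0.90 for Jund and 0.88 for Junb (adjusted exact permutation p = 0.111, 0.111 and 0.222).

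Over the same deviations, the genes outside the list with the highest Pearson r were, for Fos, H3f3b (0.97), Ier2 (0.96) and Btg2 (0.94), out of 9290 genes with a mean of at least 10 CPM over 18 libraries. For Jun they were Zfp36 (0.92), Mroh1 (0.91) and F5 (0.91), for Junb Zfp512b (0.93), Ier2 (0.90) and H3f3b (0.89), and for Egr1 Ier2 (0.93), D3Ertd254e (0.89) and Hist1h1c (0.88). For Jund they were Hopx (0.84), Ier2 (0.84) and Dusp1 (0.83), and for Fosb Arl4a (0.91), Mgat5 (0.91) and Rapgef1 (0.87). For Atf3 they were Ccrl2 (0.96), Aldh2 (0.89) and Smpdl3a (0.88), for Fosl2 Ccl6 (0.87), Ms4a4a (0.86) and Ccl9 (0.83), and for Klf6 Rgs18 (0.82), Oma1 (0.81) and Tctn3 (0.80). These are descriptions, since the genes were picked for their r. Ier2 stood among the first 3 for Fos, Junb, Jund and Egr1.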

How the data were processed

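RNA of 18 libraries in 6 groups of 3, formed from the sample titles, was analysed from the authors' deposited table of unnormalized gene counts, in whole numbers. Per the submitters' processing notes, the build was GRCm39 and the tools were STAR 2.7.10a, Trimmomatic 0.40, R 4.4.2 and GATK, in roles not given there. Neither annotation nor strand setting is given in the sources used here. Reads of a gene and an overlapping one on the other strand therefore cannot be told apart (Jun and Junos, Junb and Prdx2). A further 4 deposited tables hold comparisons computed by the authors, with a baseMean, which is a mean normalized signal, a log2 fold change with its error, and p-values, with an adjusted p below 0.05 for every listed gene. GENCODE M21 on GRCm38 named 52029 of 57010 genes, and the 4981 others held 0.339% of counts. Merged exon lengths come from the same annotation, and promoters from RefSeq on GRCm38.p6.

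The test was edgeR 4.0.16 (R 4.3.3) with filterByExpr, TMM and 1 robust quasi-likelihood fit of all libraries with 12 residual degrees of freedom, with BH adjustment over 15528 genes. A floor of 3 counts covers counting error only. Replicates differed beyond sampling noise, with a chi-square per degree of freedom of 5.85 to 40.4. On simulated counts the step recovered 80% of 100 genes changed by a log2 of 1 and 100% of 100 changed by a log2 of 2 in the stroke comparison of vehicle mice, and 81% and 93% in the age comparison. The changed genes were drawn above a minimum mean level and the others left unchanged, whereas stroke changed 48.3% of tested genes in vehicle mice. Fosb, Egr1, Fos and Jun were at percentiles 96.4, 85.2, 78.8 and 78.2 of the within-group spread of all genes. The recovery may therefore not hold for them. Alternatives were RLE normalization, no low-count filter, DESeq2 1.42.0, limma voom (limma 3.58.1), the compared groups alone, the replicate number as a block, and each library left out. Leaving out all libraries numbered 1, and the relations of Fos without stroke, were chosen after the data were seen. The members and lists were chosen with earlier results of these data known.

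All members are named, together with up to 4 called genes with the lowest p per list and comparison and the 3 genes most like each member. Some genes that this rule names are not reported here. Cell type marker lists are given by their counts. All 280 list entries were matched. Same-numbered libraries of young bexarotene and young vehicle mice deviated together in each of 3 pairs (correlation over genes of 0.26, 0.28 and 0.14). The results given for young mice come from the fit without pairs. The replicate number as a block was an alternative run, which left the count of members called there at 0.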

Additional observations from a re-analysis of the deposited data

How the results depend on the processing

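No called member changed direction under any alternative run. Without the low-count filter, 2 members were called for age (Jun and Atf3), 2 for bexarotene in young mice (Atf3 and Klf6), 2 for bexarotene in aged mice (Fos and Egr1), 1 for bexarotene after stroke (Klf6) and 2 for the difference of the bexarotene effect between stroke and no stroke (Fos and Egr1), against 0 in each with the filter. Of all 31653 genes then tested, 677, 457, 339, 419 and 256 were called in the same order. DESeq2 and the compared groups alone called 1 for age (Atf3). The cause was not tested. With the replicate number as a block, 6 members were called for stroke in vehicle mice. In bexarotene mice 5 were called, with Fosb added (adjusted p = 0.0042, edgeR with BH), and in each other comparison 0. Same-numbered libraries also deviated together in the stroke comparisons, more weakly than in young mice. Their correlations over genes were 0.13, 0.12 and 0.030 in bexarotene mice and 0.21, 0.058 and 0.035 in vehicle mice. Unlike-numbered libraries reached 0.12 in vehicle mice. For age, and for bexarotene in aged mice with or without stroke, not every same-numbered pair was positive. Fosb for stroke in bexarotene mice was also called without the filter, by DESeq2, by voom and with the compared groups alone. Over each library left out, the members called were 3 to 4 for stroke under bexarotene and 4 to 6 under vehicle, and 0 in each other comparison. Without the libraries numbered 1 they were 6 under bexarotene and 7 under vehicle, where 6265 and 6132 of all 15410 genes were called. With the block, 7790 of 15528 genes were called under bexarotene and 7794 under vehicle, and with 1 library left out 6172 to 6978 under bexarotene and 6432 to 7066 under vehicle.

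Member values that were not called could turn sign. Without the libraries numbered 1, log2 fold changes were 0.34 for Fos, 0.12 for Junb, 0.18 for Jund, 0.16 for Atf3 and 0.38 for Egr1 for bexarotene after stroke, -0.14 for Fos and -0.43 for Fosl2 for bexarotene in young mice, 0.18 for Jun and 0.086 for Klf6 for stroke under bexarotene, and -0.0042 for Junb, -0.18 for Jund and 0.036 for Klf6 for age. For stroke under vehicle, Jund was -0.018 with RLE, -0.018 with DESeq2 and -0.0084 with the compared groups alone. With 1 library left out, the values for age were -0.67 to 0.10 for Fos, -1.36 to 0.94 for Fosb, -0.15 to 0.34 for Fosl2, -1.03 to 0.056 for Jun, -0.26 to 0.38 for Junb, -0.20 to 0.24 for Jund, -0.28 to 0.71 for Egr1 and -0.14 to 0.014 for Klf6. For bexarotene in young mice they were -0.41 to 0.42 for Fos, -1.07 to 1.31 for Fosb, -0.32 to 0.23 for Fosl2, -0.59 to 0.30 for Jun and -0.26 to 0.83 for Egr1. For bexarotene in aged mice they were -0.45 to 1.12 for Fosb, -0.21 to 0.56 for Jun and -0.17 to 0.083 for Klf6. For bexarotene after stroke they were -0.49 to 0.12 for Fos, -0.31 to 0.016 for Junb, -0.17 to 0.047 for Jund and -0.67 to 0.13 for Egr1. For stroke they were -0.41 to 0.085 for Jun under bexarotene and -0.18 to 0.27 for Jund under vehicle. Over all genes, the count called was 264 for age, with 519 by DESeq2, 677 without the filter, 154 by voom, 107 without the libraries numbered 1 and 126 to 255 with 1 library left out. For bexarotene in young mice it was 79, with 457 without the filter, 210 by DESeq2, 36 with the compared groups alone, 17 without the libraries numbered 1 and 27 to 70 with 1 library left out. In aged mice it was 40, with 339 without the filter, 97 by DESeq2, 18 by voom, 24 with RLE, 26 without the libraries numbered 1 and 9 to 35 with 1 library left out. After stroke it was 9, with 419 without the filter, 59 by DESeq2, 28 by voom, 20 with the block, 6 with RLE, 5 with the compared groups alone, 3 without the libraries numbered 1 and 1 to 17 with 1 library left out. Fosl1 was at 0 counts in 16 of 18 libraries and below the floor of 3 counts in 17.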
